A study of Homo sapiens with 24 samples.

Results

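T-47D cells, a luminal, estrogen receptor-positive breast cancer line, were depleted of P-Rex1 with the RNAi duplex #2 and then stimulated with heregulin (HRG), and the genes that HRG still raised or lowered in these silenced cells are described here. The data are the 6 arrays titled P-REX1 RNAi #2, 3 with HRG and 3 without, of 24 arrays in all. The question is which part of the transcriptional response to this growth factor remains when P-Rex1 is reduced. HRG was given at 20 ng/ml for 6 h and the vehicle was PBS. The other groups, each with 3 biological replicates per treatment, were parental cells, cells with a non-target control duplex (NTC) and cells with P-Rex1 RNAi #1, a different duplex against the same gene. All of them were serum-starved, and the transfected cells from 16 h after transfection for 48 h. Silencing was transient, so that the RNAi and NTC groups are transfected populations and not clones, whereas parental cells received no duplex, and in such bulk RNA a loss of expressing cells and a lower level per cell cannot be told apart.

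HRG is a ligand of ErbB3 and ErbB4 and signals in luminal cells mainly through the ErbB2/ErbB3 heterodimer, which feeds the Ras/ERK and PI3K/Akt cascades. P-Rex1 is a guanine nucleotide exchange factor that loads the small GTPase Rac with GTP, and it is activated jointly by the PI3K product PIP3 and by G protein beta-gamma subunits. Rac drives actin polymerization, which in turn can release the MRTF coactivators to serum response factor (SRF), whereas ERK acts on ETS and AP-1 factors and switches on its own inhibitors.

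Values are RMA expression values on the log2 scale, so that a difference of 1 is a 2-fold change. The 25% quantile of the tested probe sets lay between 4.98 and 5.13 over the 6 arrays and their medians between 6.84 and 6.89, which places a level near 4 or 5 among the dimmest probe sets, where differences are compressed. The 10 luminal markers all stood above the array median, from 9.55 for ESR1 to 12.73 for KRT8 with vehicle, whereas 0 of 9 leukocyte and 0 of 8 endothelial markers and 1 of 10 fibroblast markers (COL1A1, 7.21) did. In the first principal component over all 24 arrays, which held 53.6% of the variance and separated HRG from vehicle, the 3 HRG arrays of RNAi #2 cells lay between 5.3 and 9.0, the 9 other HRG arrays between 14.5 and 27.5, and the 12 vehicle arrays between -19.4 and -16.1. Along the second component the HRG arrays of RNAi #2 cells spread from 11.7 (array 1) to -11.3 (array 3), while 3 arrays of other groups lay beyond the latter (-13.9 to -17.5), and leaving out HRG 3 together with those 3 gave 235 higher and 116 lower probe sets in place of the counts given next.

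PREX1, the targeted gene, was below its level in the controls of the same treatment on all 6 arrays. It stayed above the array medians (6.84 to 6.89). With vehicle its level was 9.0, 8.97 and 9.03, which is 2.85-fold below the mean of parental and NTC cells (log2 difference -1.51, limma adjusted p = 1.76e-12). With HRG it was 8.83, 8.57 and 8.80, each below the 3 vehicle arrays. In the controls HRG itself lowered PREX1 by 2.02-fold (log2 response -1.01), and the response in RNAi #2 cells was -0.27 (SE 0.07, adjusted p = 0.0158), under the 1.5-fold threshold. The difference between these responses was 0.74 (SE 0.09, adjusted p = 3.06e-05). The gap to the controls was thus -0.77 among HRG-treated and -1.51 among vehicle-treated samples, all taken at 6 h.

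HRG still changed 364 of 21042 probe sets with a gene symbol in RNAi #2 cells, counting those with a limma adjusted p below 0.05 and more than a 1.5-fold change, which is 1.73% of them. Of these, 226 rose (1.07%, 213 genes) and 138 fell (0.656%, 134 genes). The HRG and vehicle arrays did not overlap in 224 of the 226 and in 137 of the 138, against 13.5% and 13.7% of all probe sets that were fully separated in either direction. The calls rest on these same arrays, so this separation largely follows from them and is a description only. The changes were mostly moderate: 37 probe sets rose and 16 fell by more than 2-fold, compared with 163 and 82 for the mean response of parental and NTC cells. The same call gave 555 higher (2.64%) and 709 lower (3.37%) probe sets in NTC cells, 601 (2.86%) and 507 (2.41%) in parental cells, and 530 (2.52%) and 243 (1.15%) in RNAi #1 cells, each from the same number of arrays. Without the fold threshold, 1726 probe sets rose and 1608 fell in RNAi #2 cells. Leaving out 1 of the 6 arrays at a time gave 214 to 251 higher and 112 to 197 lower probe sets.

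**Figure D1:**
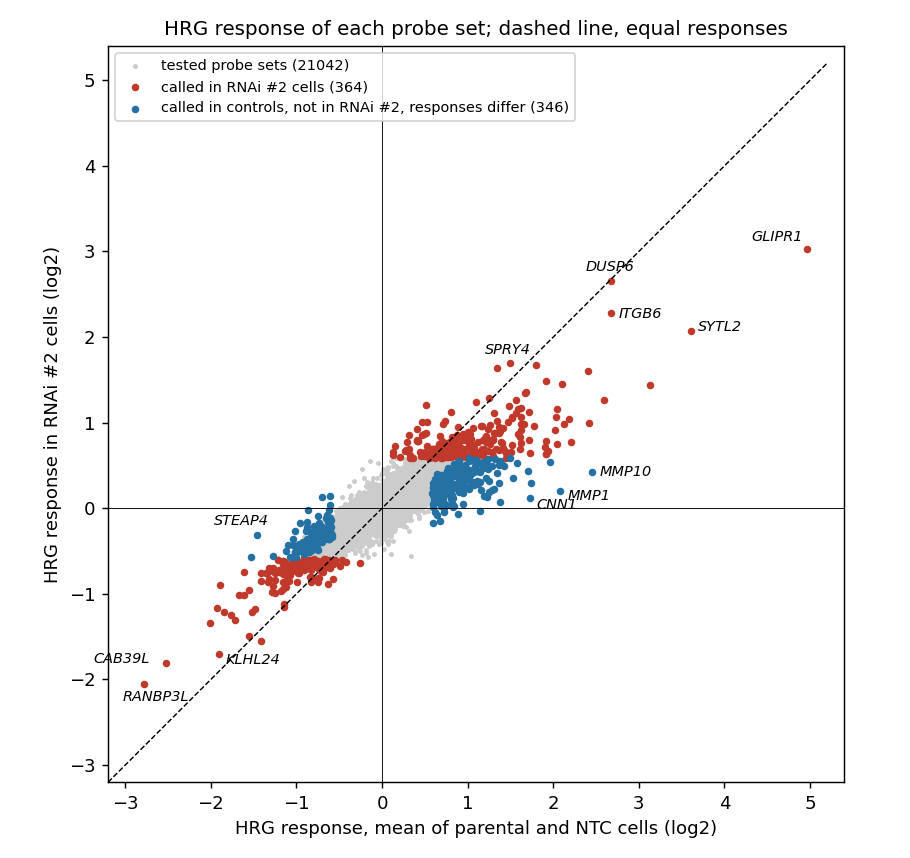
HRG response (log2 fold change) of each of the 21042 tested probe sets in RNAi #2 cells (vertical axis) against the mean response of parental and NTC cells (horizontal axis). Red points are the 364 probe sets called in RNAi #2 cells, blue points the 346 called in the controls but not in RNAi #2 cells whose responses differed by the interaction test, and the dashed line marks equal responses; DUSP6 lies on the line, whereas MMP10, MMP1 and CNN1 lie close to a response of 0.

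The response that remained was largely shared with the controls. Of the 226 probe sets raised in RNAi #2 cells, 188 (83.2%) were also raised by HRG in the control mean (parental and NTC cells averaged), as were 127 (92.0%) of the 138 lowered ones. Read from the controls, those 188 are 34.4% of 547 raised probe sets (2.6% of all tested), and the 127 are 22.4% of 567 lowered ones (2.69%). The direction was the same in RNAi #2 cells for 540 of the 547 and 564 of the 567, with median responses of 0.48 against 0.81 and of -0.43 against -0.73. These sets were chosen on the control arrays, whose own values are therefore drawn outwards, and the control mean rests on 12 arrays against 6, so that these shares and medians are a description.

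By that test, 830 probe sets (3.94%) responded differently in RNAi #2 cells and in the controls, 441 (2.1%) with a higher and 389 (1.85%) with a lower log2 response. Among the 547 raised in the controls 275 (50.3%) of these calls were a smaller response in RNAi #2 cells, and among the 567 lowered ones 174 (30.7%). Since the difference uses the same control arrays that chose these sets, larger and smaller responses were not equally likely to be called in them, and the split is no test. The raised probe sets fell into 113 that were called and not smaller by the test, 75 called and smaller, 200 not called and smaller, and 159 neither called nor smaller. With the replicate number as a block the counts over all probe sets were 822 higher and 553 lower. Whether higher or lower responses were more numerous depended on single arrays. The 441 higher and 389 lower became 184 and 312 without vehicle array 2, and 286 and 314 without vehicle array 3. They became 209 and 298 without HRG array 1, and 341 and 381 without HRG array 3. Leaving out the 4 arrays that stood apart on the second component, HRG array 3 among them, gave 374 and 399. Against NTC cells alone they were 236 (1.12%) and 293 (1.39%), against parental cells alone 211 (1.0%) and 269 (1.28%), and among differences over 1.5-fold 35 and 129.

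Most ERK feedback inhibitors that HRG raised in the controls were raised in RNAi #2 cells too. Of 19 measured genes 7 rose and 0 fell in RNAi #2 cells, against 8 in the controls, and the test of the difference called 1 of 19, PHLDA2. Their median response was 0.37 in RNAi #2 cells and 0.54 in the controls, where the medians over all 18374 genes were -0.01 and 0.00. Of all genes, 1.15% were raised and 0.713% lowered in RNAi #2 cells, 2.71% and 2.82% in the controls, and 2.21% and 1.95% had a higher or lower response by the test of the difference; the counts of every list are to be read against these shares.

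DUSP6 encodes a phosphatase that removes the activating phosphates from ERK in the cytoplasm. Among genes with a single-symbol probe set it was the 2nd largest rise in RNAi #2 cells and the 3rd largest in the controls. Its level was 5.42, 5.76 and 6.57 with vehicle and 8.24, 8.62 and 8.85 with HRG, a 6.28-fold rise (log2 2.65, SE 0.25, adjusted p = 1.77e-07). Vehicle array 3 was the highest of its group and still lay well under the HRG arrays. The control response was 6.38-fold, and the difference between both was -0.02 (SE 0.31, adjusted p = 0.984), a standard error that leaves room for a moderate difference. SPRY4, a Sprouty protein that blocks receptor signaling upstream of ERK, went from 5.27, 5.12 and 5.38 to 6.64, 7.0 and 7.22 (3.24-fold, SE of the log2 response 0.15, adjusted p = 6.71e-08). The nuclear ERK phosphatase DUSP4 went from 6.13, 6.11 and 6.37 to 7.71, 7.82 and 8.0 (3.12-fold, adjusted p = 3.12e-08). For both of these the response was nominally above that of the controls, by 0.20 (SE 0.18) for SPRY4 and by 0.29 (SE 0.17) for DUSP4, and neither difference passed the test.

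The Sprouty-related inhibitors rose as well. SPRED1, which brings neurofibromin to the membrane to switch off Ras, rose from 6.01, 6.20 and 6.39 to 7.44, 7.57 and 7.47, and SPRED2 from 8.13, 8.16 and 8.18 to 9.21, 9.24 and 9.41. Their responses were 1.29 and 1.13 in RNAi #2 cells and 1.25 and 0.80 in the controls, with adjusted p-values of 0.932 and 0.131 for the difference. SPRY2 rose by 0.75, with 0.66 in the controls. SPRED2, SPRY2, PHLDA2 and DUSP7 are named after their values were seen, to complete the list. The exception, PHLDA2, rose by 0.99 (SE 0.13), less than its 1.65 in the controls (adjusted p = 0.0161 for the difference). DUSP7, called in the controls at 0.65, had a response of 0.52 (adjusted p = 0.00169), short of the fold threshold.

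**Figure D2:**
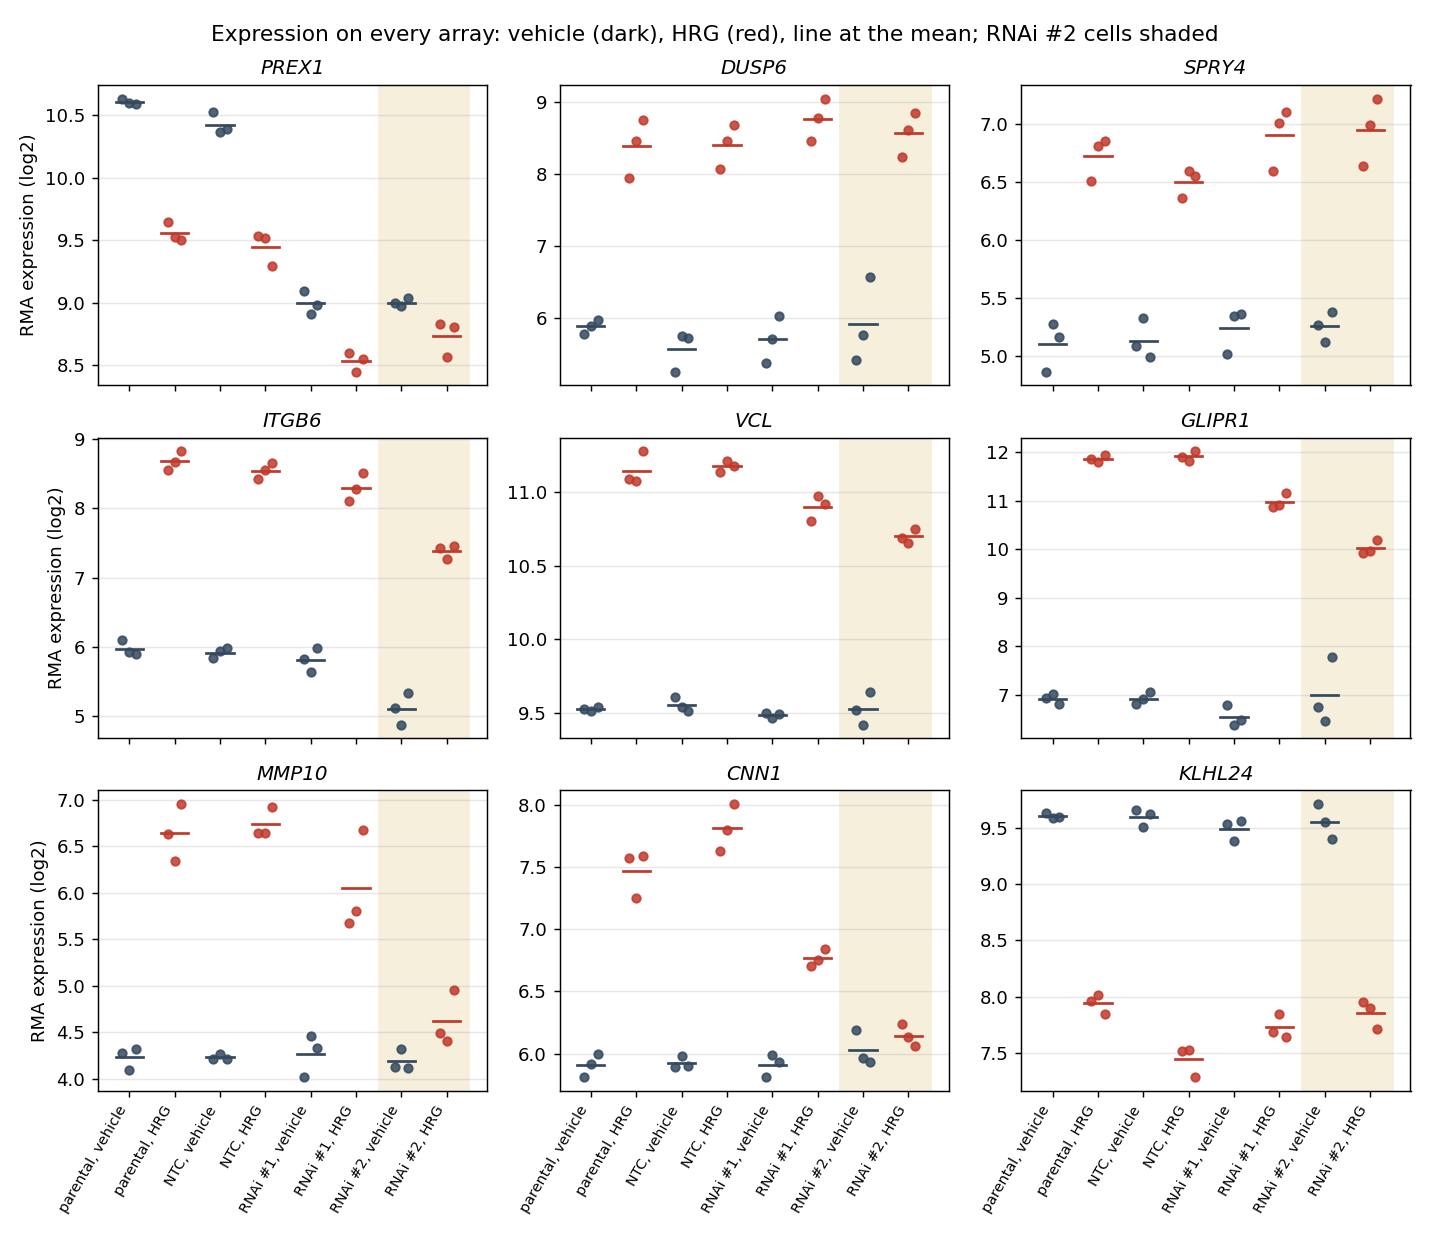
RMA expression (log2, vertical axes) of 9 genes on every array, in the 8 groups along the horizontal axis, with points for the replicates 1 to 3 from left to right and a line at the mean; RNAi #2 cells are shaded. PREX1 with vehicle lies near 9.0 in RNAi #2 cells, DUSP6, SPRY4 and KLHL24 move clearly with HRG in every group, GLIPR1 reaches about 10.02 on average with HRG, and MMP10 and CNN1 stay near their vehicle levels.

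Promoter sequence is given for DUSP6 and ITGB6, which were called in RNAi #2 cells, and for CNN1 and MMP10, which were not, to show the letters next to the start of genes on both sides of the contrast. Each is the stretch of 250 bases immediately upstream of the start in RefSeq (GRCh38.p14), 5′ to 3′ on the gene's strand, and capitals mark a match to any of 6 motifs searched on both strands: AP-1 (TGANTCA), TEAD (GGAATG), forkhead (GTAAACA), ETS (CCGGAAG), E-box (CACGTG) and the CArG box bound by SRF. The table held 1 start for each of these 4 genes.
DUSP6 (chr12:89352502-89352751, minus strand): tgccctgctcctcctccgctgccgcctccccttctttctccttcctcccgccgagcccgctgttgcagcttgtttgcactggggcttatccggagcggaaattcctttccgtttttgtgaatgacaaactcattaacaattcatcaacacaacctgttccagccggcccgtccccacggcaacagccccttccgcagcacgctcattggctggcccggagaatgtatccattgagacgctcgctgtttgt
ITGB6 (chr2:160200273-160200522, minus strand): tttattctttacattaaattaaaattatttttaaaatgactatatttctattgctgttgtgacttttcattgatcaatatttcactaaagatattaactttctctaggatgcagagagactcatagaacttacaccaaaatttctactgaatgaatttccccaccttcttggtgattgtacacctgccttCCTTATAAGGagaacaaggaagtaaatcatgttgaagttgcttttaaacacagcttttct
CNN1 (chr19:11538601-11538850, plus strand): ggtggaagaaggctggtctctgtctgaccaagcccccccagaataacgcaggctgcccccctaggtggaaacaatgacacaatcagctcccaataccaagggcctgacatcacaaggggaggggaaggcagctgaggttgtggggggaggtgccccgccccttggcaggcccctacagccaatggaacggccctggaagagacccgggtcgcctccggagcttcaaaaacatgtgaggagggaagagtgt
MMP10 (chr11:102780629-102780878, minus strand): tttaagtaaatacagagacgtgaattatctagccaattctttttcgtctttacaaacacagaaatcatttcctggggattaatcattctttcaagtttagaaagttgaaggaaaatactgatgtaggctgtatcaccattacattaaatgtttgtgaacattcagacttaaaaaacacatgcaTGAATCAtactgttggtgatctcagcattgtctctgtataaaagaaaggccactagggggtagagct
The ITGB6 window held a CArG box 60 to 51 bases upstream of the start and the MMP10 window an AP-1 match 67 to 61 bases upstream, and the other 2 windows held none of the 6. Of 35116 starts in the table, 6.57% had an AP-1 match in the same window, 11.9% a TEAD, 2.98% a forkhead, 8.52% an ETS and 6.34% an E-box match, and 1.16% a CArG box. For the 20067 starts of tested genes the shares were 5.31%, 10.4%, 2.35%, 10.8%, 7.39% and 1.19%, in the same order. Among 224 starts of 154 genes raised in RNAi #2 cells these shares were 7.59%, 12.5%, 0.893%, 3.57%, 8.48% and 3.57%, in the same order. The 220 starts of 114 lowered genes had 7.27%, 15%, 3.18%, 3.64%, 9.09% and 0.455%, and 237 starts of 147 genes raised in the controls but not called and smaller in RNAi #2 cells had 11%, 12.2%, 3.38%, 5.91%, 4.64% and 2.95%. Several starts of 1 gene overlap, and these shares are a description only.

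Among the transcription factors of the immediate and delayed early response, 3 of 28 rose in RNAi #2 cells and 7 in the controls, and 3 responses were smaller. KLF4, a Krüppel-like factor of epithelial differentiation, rose from 6.98, 7.07 and 7.24 to 7.81, 7.72 and 8.08, a response of 0.77 that was below its 1.38 in the controls (adjusted p = 0.00692 for the difference). ETS2 rose by 0.74 and by 1.52 in the controls (adjusted p = 0.000746). ETV4, an ETS factor of the PEA3 group, rose by 0.69 and by 0.59 in the controls, with a difference of 0.10 (SE 0.12). At 6 h the classical early genes FOS, JUN and EGR1 had responses of 0.14, 0.09 and 0.41 and were not called in RNAi #2 cells or in the controls; these 3 were chosen after their values were seen.

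GLIPR1 was the largest rise in RNAi #2 cells as in the controls. Its level was 6.75, 6.45 and 7.78 with vehicle and 9.92, 9.96 and 10.18 with HRG, an 8.15-fold rise (log2 3.03, SE 0.20, adjusted p = 9.3e-10). The control response was 31.3-fold, and the difference of -1.94 (SE 0.24) had an adjusted p of 3.74e-05. GLIPR1 encodes a secreted protein of the CAP family, and it is among the genes that remained strongly inducible and yet fell short of the control response. SYTL2, a Rab27 effector in vesicle trafficking, was another, going from 5.66, 5.64 and 6.06 to 7.77, 7.87 and 7.93. This 4.20-fold rise compared with 12.2-fold in the controls (difference -1.53, SE 0.13, adjusted p = 6.46e-07). ANXA1, a phospholipid-binding annexin, rose from 8.24, 8.08 and 8.30 to 9.90, 9.72 and 9.82 (3.04-fold, with 5.31-fold in the controls, adjusted p = 0.00013 for the difference).

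The 20 largest rises of the controls were taken among genes with a single-symbol probe set. GBP1, a leading gene of the study, is not among them. Of these 20, 17 were called in RNAi #2 cells and 16 were smaller by the test. The response kept ranged from 9.7% to 99.2% of the control's log2 value with a median of 48.1%. The 3 not called were MMP10, MMP1 and SPRR1A. Of the 20 largest falls, 18 were called in RNAi #2 cells and 12 were smaller, with 21.5% to 109.7% kept and a median of 66.1%; LRRC31 and STEAP4 were not called. A share of a control value that was itself chosen for its size is drawn towards lower numbers.

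The other large rises included the chloride channel-like protein CLIC6, from 7.28, 7.15 and 7.58 to 9.13, 8.92 and 9.0 (3.19-fold, adjusted p = 2.49e-11), at -0.12 (SE 0.11) from the controls. SLC16A9, a monocarboxylate transporter family member, rose by 1.49, PLEKHH2 by 1.36, SIPA1L2, a regulator of Rap signaling, by 1.35, and GPAT3, an enzyme of triglyceride synthesis, by 1.26. Of these 4, GPAT3 differed from the controls, where its response was 2.59 (adjusted p = 5.04e-05), and SLC16A9 did so with the replicate block (adjusted p = 0.128 without it and 0.0147 with it).

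MIR21, the gene of an oncogenic microRNA abundant in breast tumors, rose from 6.72, 6.62 and 7.28 to 8.01, 8.37 and 8.60 (2.73-fold, SE of the log2 response 0.23, adjusted p = 9.47e-05). The control response was 4.30-fold and the difference of -0.66 (SE 0.28, adjusted p = 0.233) passed the test only with the replicate block (0.0193). The array probes precursor RNA, and the mature form was not measured separately. Its main product has the following sequence in RefSeq (GRCh38.p14, chr17:59841273-59841294, plus strand), with the seed, bases 2 to 8, in capitals, since the seed is what pairs with target messages.
hsa-miR-21-5p: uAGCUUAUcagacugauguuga

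**Figure D3:**
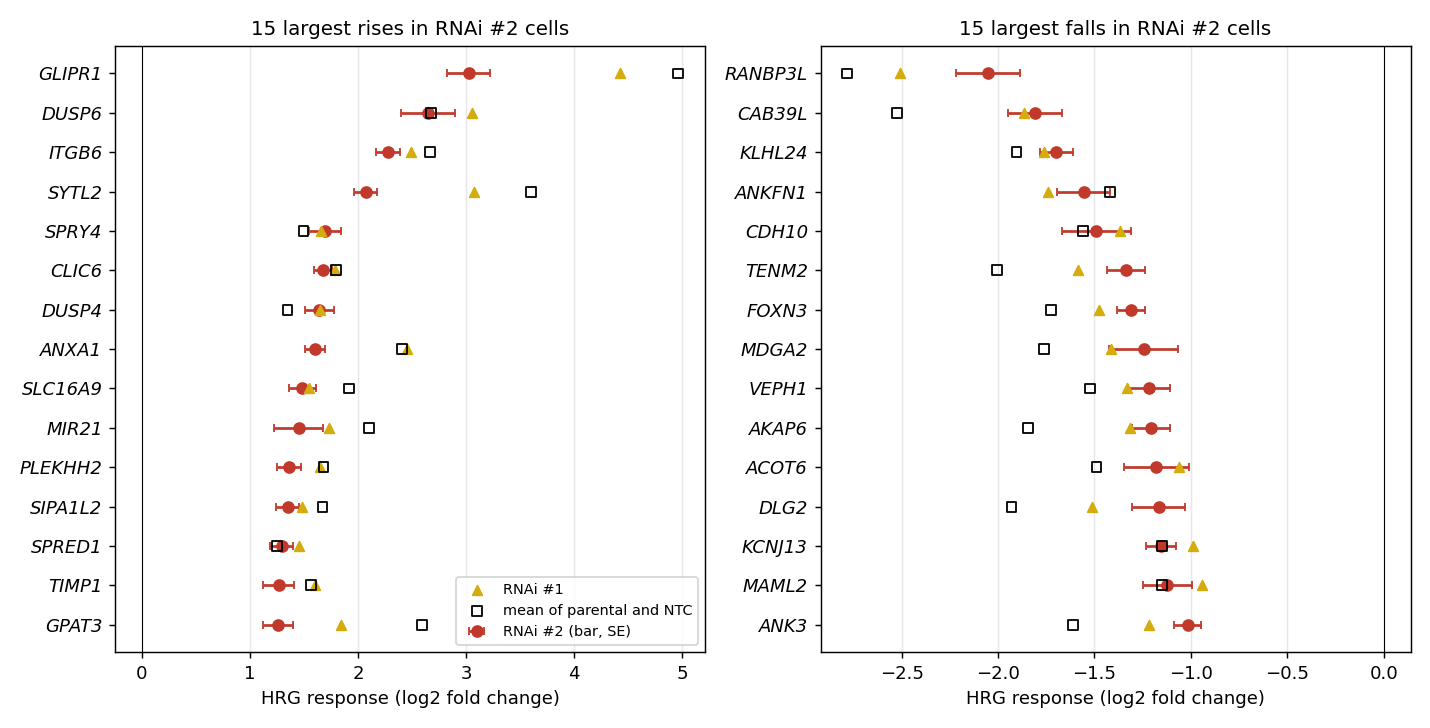
HRG response (log2 fold change, horizontal axes) of the 15 largest rises and 15 largest falls in RNAi #2 cells, with the standard error as a bar, beside the response in RNAi #1 cells (triangles) and the mean of parental and NTC cells (squares). GLIPR1, SYTL2, ANXA1 and GPAT3 lie far to the left of the squares, while DUSP6, SPRED1, KCNJ13 and MAML2 coincide with them.

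Integrins, the heterodimeric receptors that tie the actin cytoskeleton to the matrix, kept part of their response. Of 13 measured subunits 3 rose in RNAi #2 cells and 6 in the controls, and 3 responses were smaller. ITGB6, the epithelial subunit that pairs with alpha V to activate latent TGF-beta, went from 5.11, 4.88 and 5.33 to 7.43, 7.26 and 7.45 (4.85-fold, adjusted p = 2.06e-11), while the control response was 6.36-fold (difference -0.39, SE 0.14, adjusted p = 0.131, and 0.0394 with the replicate block). With vehicle ITGB6 was 1.79-fold lower in RNAi #2 cells than in the controls (adjusted p = 1.82e-05), and with HRG the log2 difference was -1.23. ITGA5, the fibronectin receptor subunit, rose by 0.94 and by 1.07 in the controls. ITGA2, the collagen receptor subunit, rose from 9.26, 9.08 and 9.09 to 9.83, 9.86 and 10.09, by 0.78 in place of 1.92 (adjusted p = 8.33e-06 for the difference).

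Actin cytoskeleton genes driven by SRF and MRTF had fewer calls in RNAi #2 cells than in the controls. Of 27 measured, 13 rose in the controls and 4 in RNAi #2 cells, 0 fell, and 13 responses were smaller by the test; the median was 0.19 against 0.53. VCL, which encodes the focal adhesion protein vinculin, rose from 9.52, 9.42 and 9.64 to 10.69, 10.65 and 10.75 (2.25-fold, adjusted p = 2.92e-11), with 3.08-fold in the controls. ZYX, zyxin of focal adhesions and stress fibers, rose from 7.89, 7.84 and 7.97 to 8.99, 8.94 and 9.12, by 1.12 in place of 1.72. FHL2 and PDLIM5, a pair of LIM domain proteins, rose by 0.92 and 0.69. The difference from the controls passed the test for VCL (adjusted p = 0.00095), ZYX (0.00118) and PDLIM5 (0.0277) and for FHL2 with the replicate block (0.0103) but not without it (0.0927).

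CNN1, the smooth muscle form of the actin-binding protein calponin, was at 6.19, 5.97 and 5.93 with vehicle and 6.24, 6.13 and 6.06 with HRG. The arrays overlapped, and the response of 0.12 (SE 0.09, adjusted p = 0.522) compared with 1.72 in the controls, a difference of -1.61 (SE 0.12, adjusted p = 4.53e-08). Caldesmon (CALD1) and smooth muscle actin (ACTA2), named after their values were seen, had responses of 0.44 and 0.28 where the controls had 1.71 and 1.13 (adjusted p = 5.66e-06 and 0.000139 for the differences). At an adjusted p under 0.05 with no fold threshold 12 of the 27 rose in RNAi #2 cells.

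Fewer matrix proteases and inhibitors were called in RNAi #2 cells than in the controls. Of 35 measured, 9 rose in the controls and 3 in RNAi #2 cells, namely the inhibitors TIMP1, SERPINB8 and SERPINA3, and 10 responses were smaller. TIMP1, a secreted inhibitor of metalloproteinases, rose from 8.21, 8.12 and 8.68 to 9.72, 9.35 and 9.74 (2.41-fold, adjusted p = 2.06e-06), with 2.95-fold in the controls and a difference that missed the threshold (adjusted p = 0.472). SERPINB8 rose by 1.16 in place of 2.04 and SERPINA3 by 0.78 in place of 2.21, both smaller by the test. SERPINE2, also an inhibitor and named after its values were seen, had a response of 0.11 (adjusted p = 0.707) in place of 0.80 and was smaller as well (adjusted p = 0.0156), so that inhibitors were found on both sides.

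No metalloproteinase on the list was called. MMP10, stromelysin-2, was at 4.13, 4.33 and 4.12 with vehicle and 4.49, 4.41 and 4.95 with HRG. Its response of 0.43 (SE 0.19, adjusted p = 0.156) compared with 2.46 in the controls, and the difference of -2.03 (SE 0.24, adjusted p = 1.87e-05) was the largest reduction of all named genes. All 3 HRG arrays lay above the vehicle arrays, with HRG array 3 well above the others. MMP1, interstitial collagenase, was at 4.06, 4.0 and 3.84 and then at 4.14, 4.12 and 4.25, a response of 0.20 (SE 0.11, adjusted p = 0.28) in place of 2.08 (adjusted p = 4.53e-08 for the difference). Both genes sat below the 25% quantile of the arrays in the silenced cells, so that a small rise would be hard to detect.

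Targets of NF-kappa B and TNF signaling gave 0 calls among 30 in RNAi #2 cells and 6 in the controls, and 8 responses were smaller. With 1.15% of all genes raised, 0 of 30 is near the background and says nothing of this list by itself. With no fold threshold 5 of the 30 passed, among which MAP3K14 (NIK, the kinase of the non-canonical pathway) had a response of 0.44 (adjusted p = 0.000827), NFKB2 of 0.38, TNFAIP2 of 0.40 and NFKBIZ of 0.35. In the controls MAP3K14 rose by 1.10 and NFKB2 by 0.81, and both differences passed the test (adjusted p = 0.000419 and 0.0492). TNFAIP2 rose by 0.65 there. TNFAIP3, ICAM1 and CSF1, named after their values were seen, complete the 6. They had responses of 0.21, 0.22 and 0.12 in place of 1.285, 1.01 and 0.71. Among basal and squamous keratinocyte genes, 2 of 23 rose, KRT15 by 0.83 and IVL by 0.79, against 8 in the controls. SPRR1A, a cornified envelope precursor, had a response of 0.53 (SE 0.20, adjusted p = 0.0736) in place of 1.97. Of 20 YAP/TEAD targets 0 were called in RNAi #2 cells and 2 in the controls, the former near the background; CCN1, the most responsive of them there, had 0.28 in place of 0.96 (adjusted p = 0.00264 for the difference).

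Ligands and receptors of the ErbB system also moved. Of 9 EGF family ligands, 2 rose, EPGN (epigen) from 4.14, 4.25 and 4.16 to 4.89, 4.91 and 5.01 and HBEGF from 7.36, 7.43 and 7.39 to 8.13, 8.06 and 8.03. Both rises were smaller than in the controls, with 0.75 in place of 2.04 for EPGN and 0.68 in place of 1.37 for HBEGF. ERRFI1, the ErbB inhibitor MIG6, rose by 0.81 and by 1.04 in the controls, and the difference of -0.23 (SE 0.18) did not pass the test. LRIG1, which targets ErbB receptors for degradation, fell by 0.62, with -1.15 in the controls (adjusted p = 0.000619 for the difference), and its response was -0.58, under the fold threshold, without vehicle array 1. ERBB3, the HRG receptor itself, was at 9.92, 9.85 and 9.93 with vehicle and 9.42, 9.22 and 9.40 with HRG, a response of -0.55 (SE 0.06, adjusted p = 6.69e-07) that stayed under the fold threshold, and the controls had -0.76 (adjusted p for the difference 0.11, and 0.0406 with the replicate block). Of the 16 ErbB receptors and adaptors, 1 rose and 1 fell in RNAi #2 cells, and 1 rose and 6 fell in the controls.

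In the CXCR4 axis, 3 of 13 genes rose in RNAi #2 cells and 3 in the controls. CXCR4, the receptor of the chemokine CXCL12 and a route to P-Rex1 through G protein beta-gamma subunits, rose from 6.29, 6.06 and 6.13 to 6.82, 6.94 and 7.22 (1.78-fold, adjusted p = 3.64e-05), with 1.94-fold in the controls and a difference of -0.12 (SE 0.15). RGS16, a GTPase-activating protein for G alpha subunits, rose by 0.69, and by 0.58 (under the threshold) without HRG array 3. The Src family kinase LYN rose by 0.98 in place of 2.12 (adjusted p = 6.3e-05 for the difference). Glycolysis and hypoxia genes had 5 rises among 21 in RNAi #2 cells and 5 in the controls, of which 3 were shared (HK2, PFKP and EGLN3). Those of RNAi #2 cells comprised the hexokinase HK2 (0.77, with 0.76 in the controls), PFKFB3 (0.86, with 0.47, under the threshold in the controls), PFKP (0.90, with 1.37, smaller by the test) and EGLN3 (0.67, with 1.24, smaller by the test). The fifth was VEGFA at 0.60, which was at 0.57 and not called in the controls. ENO2 (0.38, with 0.86 in the controls) and the glucose transporter SLC2A1 (0.58, with 0.66) were called only in the controls; these last 3 are named to complete the set. The difference for PFKFB3 had an adjusted p of 0.0606 and, with the replicate block, of 0.00772.

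**Figure D4:**
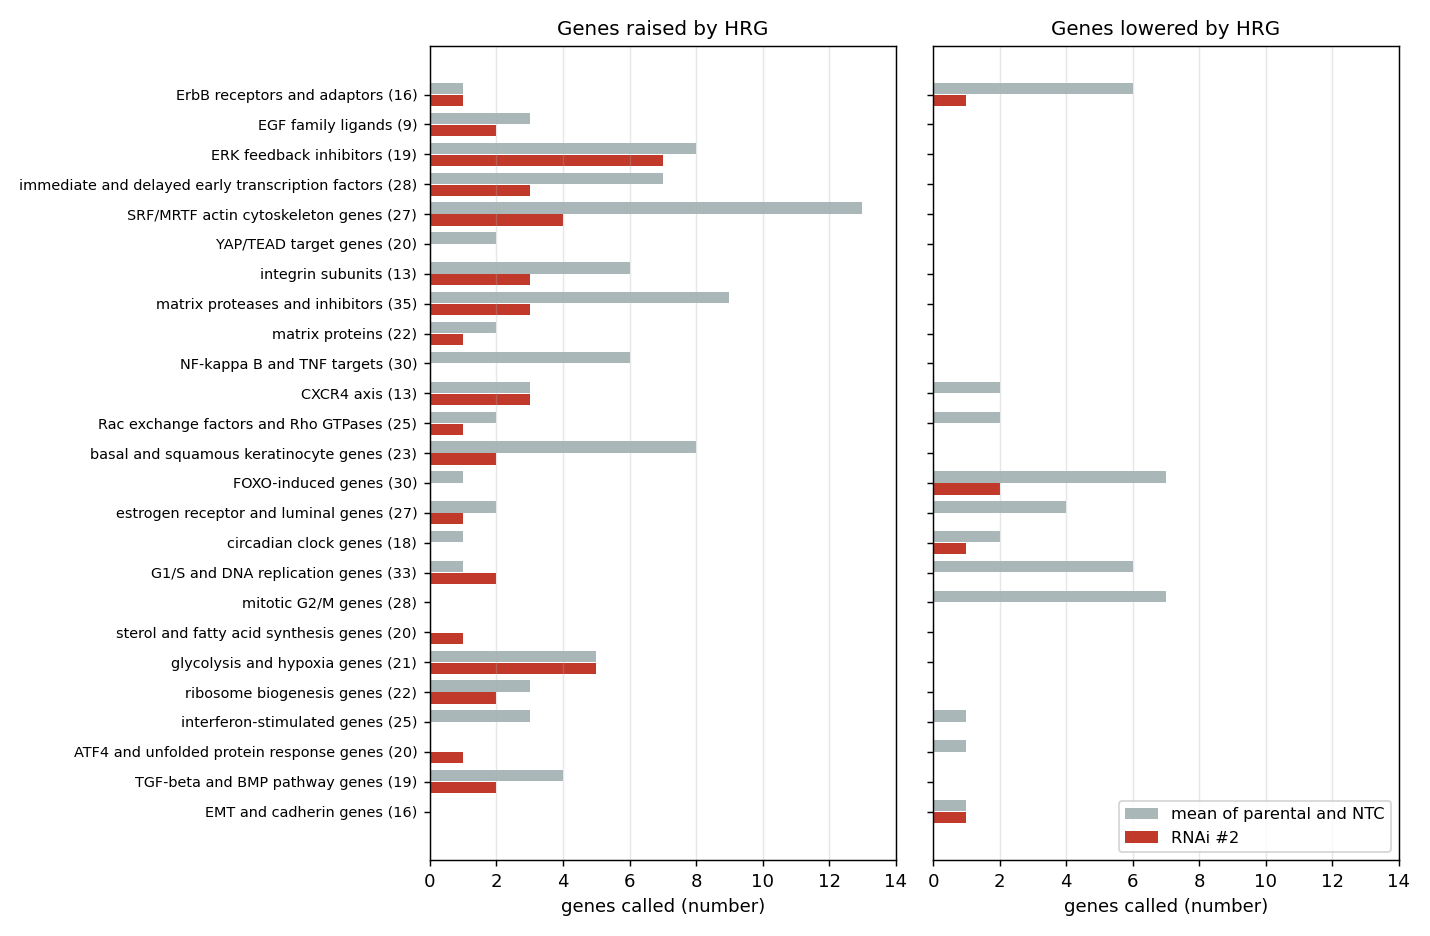
Number of genes called as raised (left) or lowered (right) by HRG in each of 25 gene lists, with the number of measured genes in parentheses; grey bars are the mean response of parental and NTC cells and red bars RNAi #2 cells. ERK feedback inhibitors keep 7 of 8 calls, SRF/MRTF genes 4 of 13, and NF-kappa B and TNF targets 0 of 6; the mean of 2 control groups has more arrays behind it than RNAi #2 cells.

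RANBP3L, a nuclear exporter of SMAD proteins, was the largest fall in RNAi #2 cells as in the controls, from 6.97, 6.54 and 6.70 to 5.10, 4.57 and 4.39 (4.15-fold, adjusted p = 2.13e-08). CAB39L, a scaffold of the kinase LKB1, fell from 9.35, 9.34 and 9.27 to 7.88, 7.47 and 7.2 (3.50-fold, adjusted p = 1.42e-08). For both the fall was smaller than in the controls, by 0.73 and 0.72 (adjusted p = 0.0426 and 0.0188), and RANBP3L was 1.51-fold lower with vehicle than in the controls. With HRG, RANBP3L lay near or below the 25% quantile of the arrays (4.98 to 5.13), where differences are compressed.

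KLHL24, a FOXO-induced ubiquitin ligase adaptor, fell from 9.71, 9.55 and 9.40 to 7.95, 7.90 and 7.71 (3.24-fold, adjusted p = 2.06e-11), with 3.74-fold in the controls and a difference of 0.21 (SE 0.10, adjusted p = 0.346). Of 30 FOXO-induced genes, 2 fell in RNAi #2 cells and 7 in the controls. The other one was FBXO32, the atrophy-related ubiquitin ligase atrogin-1, at 9.99, 10.01 and 10.06 and then 9.21, 9.25 and 9.40, a fall by 0.73 where the controls had -0.71. YPEL3 had -0.49 (adjusted p = 0.00132) and stayed under the fold threshold. The test of the difference called 2 of the 30, 1 in each direction.

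Further large falls were ANKFN1 (-1.56), the cadherin CDH10 (-1.49), the teneurin TENM2 (-1.34), the forkhead repressor FOXN3 (-1.31), MDGA2 (-1.24), VEPH1 (-1.22) and the kinase A anchor AKAP6 (-1.21). KCNJ13, an inward-rectifier potassium channel, and MAML2, a Notch coactivator, fell by 1.15 and 1.12, close to the -1.15 that both had in the controls. The clock repressor NR1D2 fell from 8.69, 8.63 and 8.56 to 7.67, 7.71 and 7.45, by 1.01 in place of -1.67 (adjusted p = 0.000752 for the difference), and was the sole fall among 18 clock genes.

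Among estrogen receptor and luminal genes, 0 of 27 fell in RNAi #2 cells, near the 0.713% of all genes, and 4 in the controls. ESR1, estrogen receptor alpha, was at 9.67, 9.46 and 9.52 with vehicle and 9.15, 9.16 and 9.25 with HRG, a response of -0.36 (SE 0.08, adjusted p = 0.00338) in place of -1.04 (adjusted p = 0.000292 for the difference). A dimmer ESR1 probe set did not share the fall seen in the controls. The progesterone receptor PGR had -0.30 (adjusted p = 0.0557) in place of -0.81. CCND1, cyclin D1, rose from 9.94, 10.00 and 9.91 to 10.48, 10.52 and 10.65, by 0.60, just over the threshold of 1.5-fold; it was 0.58 without vehicle array 3 and 0.55 without HRG array 3, both under it. The controls had 0.91, and the difference had an adjusted p of 0.0864 and, with the replicate block, of 0.0455.

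DNA replication and G1/S genes, of which 6 of 33 fell in the controls, had 0 falls in RNAi #2 cells, again near the background, and 12 of their responses were higher by the test. The uracil glycosylase UNG had -0.36 in place of -0.75 (adjusted p = 0.00699). CCNE1, cyclin E1, rose from 7.70, 7.68 and 7.75 to 8.45, 8.36 and 8.29 (1.58-fold, adjusted p = 4.2e-07). The 12 became 5 without vehicle array 2 and 6 without HRG array 1, 7 against NTC cells alone and 6 against parental cells alone, and 16 with the replicate block. Of 28 mitotic genes 0 were called in RNAi #2 cells, near the background, and 7 fell in the controls, and 0 of the differences passed the test.

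The largest reductions of a fall, besides those named, were in STEAP4, a metalloreductase (-0.31 in place of -1.46), PLEKHS1 (-0.90 in place of -1.90), LRRC31 (-0.57 in place of -1.53), the B-cell linker BLNK (-0.74 in place of -1.62) and the bombesin receptor GRPR (-0.02 in place of -0.86). GRPR was at 10.54, 10.49 and 10.57 with vehicle and 10.49, 10.54 and 10.51 with HRG, so that its arrays overlapped throughout. DLG2, MKX, CASP9 and LRRN3 completed the 10 together with PREX1. Of these, CASP9 and LRRN3 did not fall in RNAi #2 cells (0.14 and 0.13, in place of -0.61 and -0.70). With vehicle LRRC31 was 1.94-fold lower in RNAi #2 cells than in the controls, and STEAP4 and PLEKHS1 1.40- and 1.44-fold lower.

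Few levels differed with vehicle. Against both controls, 3 probe sets were higher (0.0143%) and 35 lower (0.166%) in RNAi #2 cells, 0.181% in all, whereas with HRG 24 were higher (0.114%) and 188 lower (0.893%), 1.01% in all. Among the 226 probe sets raised in RNAi #2 cells 9 were lower than in the controls with vehicle and 59 with HRG, and among the 138 lowered ones 1 was lower with vehicle and 11 were higher with HRG. ITGB6, PLEKHH2, JAZF1, ABCC11, ABCC12, LUM, ID1, KCNS3 and AK4 were the 9 that were lower with vehicle. LUM, a matrix proteoglycan on the fibroblast marker list, was 2.44-fold lower with vehicle and rose by 0.99; of the other 9 markers on that list 0 were called, and the part of other cells in these levels was not tested.

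HRG raised 10 probe sets in RNAi #2 cells by more than in the controls, as judged by the test of the difference, and these are named because of that result. The largest were the transporter ABCC12 (1.21, with 0.52 in the controls), the glycosyltransferase GALNT7 (1.01, with 0.74) and the transporter ABCC11 (1.00, with 0.47). ABCC11 was at 9.15, 9.11 and 9.37 with vehicle and 10.20, 10.11 and 10.33 with HRG, and ABCC12 at 6.05, 6.07 and 6.02 and then 7.23, 7.18 and 7.35. Both were lower than in the controls with vehicle (log2 differences -0.93 and -0.83), and with HRG their means of 10.21 and 7.26 stood below the 10.56 and 10.66 and the 7.40 and 7.38 of parental and NTC cells.

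The others were the lipoprotein receptor LRP8 (0.88), PCDH20 (0.80), the RNA-binding protein LIN28A (0.79), ZFPM2 (0.79), the ETS factor ETV1 (0.73), the Notch ligand DLL1 (0.67) and ARFGEF3 (0.62). ETV1, of the PEA3 group like ETV4, was at 4.55, 4.56 and 4.70 and then at 5.36, 5.5 and 5.14, where the control response was 0.15 (difference 0.57, SE 0.11, adjusted p = 0.00367). LIN28A rose from 8.72, 8.77 and 8.68 to 9.40, 9.56 and 9.57 and differed with vehicle by 0.08 on the log2 scale (adjusted p = 0.604). DLL1, ARFGEF3 and GALNT7 were lower than the controls with vehicle (-0.54, -0.46 and -0.33, limma adjusted p from 0.000156 to 0.000959). These differences were under the 1.5-fold threshold. With HRG, DLL1 and GALNT7 (means of 7.24 and 8.94) stood below both controls. ARFGEF3 reached 8.56, with 8.51 and 8.52 in parental and NTC cells. LRP8 was lower too (-0.26, adjusted p = 0.0487) but above both with HRG. The vehicle difference did not pass for PCDH20, ZFPM2 and ETV1. Against NTC cells alone and parental cells alone, ABCC11, ETV1 and ARFGEF3 passed the test in both and the other 7 in 1 or neither. In all, 28 raised and 6 lowered probe sets were called in neither control group nor in their mean, and 10 and 3 of those were not called in RNAi #1 cells either.

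With duplex #1 the responses were mostly of similar direction and larger size. Of the 226 raised probe sets 211 were called in RNAi #1 cells, and of the 138 lowered ones 107. Among the 547 raised in the controls, RNAi #1 kept 395 calls and RNAi #2 188, with median responses of 0.70 and 0.48; among the 567 lowered ones the calls were 204 and 127 and the medians -0.50 and -0.43. The direct test of the difference between both duplexes called 14 probe sets, all of them lower in RNAi #2 cells (0.0665%), and 0 higher. With vehicle PREX1 was at similar levels in both (vehicle means of 8.99 and 9.0). With HRG, PREX1 was at 8.60, 8.45 and 8.55 in RNAi #1 cells and at 8.83, 8.57 and 8.80 in RNAi #2 cells, which was not tested. With the replicate number as a block 32 probe sets had a lower response in RNAi #2 cells and 1 a higher one. Of the genes named here EPGN, GLIPR1, KLF4, LYN, MMP10 and SERPINA3 then passed as well (adjusted p from 0.0173 to 0.0303, and from 0.0551 to 0.178 without the block). DAPP1 (adjusted p = 0.0401 with the block and 0.274 without it) and ENO2 (0.0198 and 0.477) passed too. The 14 became 7 without vehicle array 1 and without HRG array 2, and 9 without vehicle array 3 and without HRG array 3.

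The 14 probe sets stood for 13 genes, led by MMP1, at 0.20 in RNAi #2 and 1.47 in RNAi #1 cells (difference -1.27, SE 0.16, adjusted p = 0.00153). Next came MAP1B, a microtubule-associated protein, which rose from 5.04, 5.06 and 5.46 to 6.08, 6.18 and 6.31, by 1.00 where RNAi #1 gave 2.23 (adjusted p = 0.0133). SYTL2 rose by 3.07 with RNAi #1 (adjusted p = 0.00853), ANXA1 by 2.45 (adjusted p = 0.00853) and CNN1 by 0.86 (adjusted p = 0.0285). The retinaldehyde dehydrogenase ALDH1A3 rose by 0.64 in RNAi #2 and 1.47 in RNAi #1 cells. A dimmer ALDH1A3 probe set did not rise in RNAi #2 cells or in the controls. Both probe sets of the serine protease TMPRSS11E rose, by 0.87 and 0.88 in RNAi #2 and by 1.83 and 1.84 in RNAi #1 cells. PRG4, LMO7, SERPINB8, CYTH3, OPN3 and TFF1 completed the set. For TMPRSS11E (1.32 and 1.365), PRG4 (0.77) and TFF1 (0.37) the control response lay between those of both duplexes. PRG4 and TFF1 rose by 1.28 and 0.63 in RNAi #1 cells, with 0.42 and 0.13 in RNAi #2 cells. The RNAi #2 responses of TMPRSS11E, PRG4 and TFF1 did not differ from the controls by the test (adjusted p from 0.0605 to 0.168). Those of the other genes in the set did. For CNN1, LMO7, PRG4, SERPINB8 and TMPRSS11E the difference from RNAi #1 lost its call without vehicle array 1 (adjusted p from 0.058 to 0.0969), and for CNN1, PRG4, SERPINB8 and TMPRSS11E also without HRG array 2 (0.0779 to 0.103).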

How the data were processed

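Total RNA of 24 T-47D samples was hybridised to Affymetrix Human Gene 1.0 ST arrays. The deposited values are log2 expression per probe set, made by the authors with RMA in simpleaffy (version not stated in these sources). Of 28536 probe sets, 21042 had at least 1 gene symbol (19292 a single symbol, 1750 several) and were tested, and 7494 had none. The number of arrays limits the precision (median SE of the RNAi #2 response 0.078).

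All 24 arrays were fitted together in limma 3.58.1 (R 4.3.3) with 1 coefficient for each of the 8 groups, and the Benjamini-Hochberg adjustment ran over all tested probe sets. A response counted as called with an adjusted p below 0.05 and more than a 1.5-fold change, and differences between responses at an adjusted p under 0.05. The brightest single-symbol probe set stands for a gene. Rises and falls were ranked over single-symbol probe sets, so a gene without such a probe set has no rank. The Rank Products test of the study was not run. Same-numbered vehicle and HRG arrays of RNAi #2 cells deviated together (correlations 0.388, 0.295 and 0.217), so the replicate number was also fitted as a block.

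Genes named are PREX1, the study's leading genes with a single-symbol probe set (chosen on these samples, hence not independent) and the 15 largest rises and falls. The 10 largest differences in each direction and up to 4 genes per list are named too, and others are marked. The members and lists were chosen with earlier results of these data known. Scripts were tested on simulated data.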

Additional observations from a re-analysis of the deposited data

Results flagged for a closer look

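The HRG response of the following named genes differed between RNAi #2 cells and the mean of parental and NTC cells by the interaction test of limma, and each value is the log2 response in RNAi #2 cells minus that in the controls. Most were named for a large response or a large difference, so their number is not a result.

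The most negative differences were found for MMP10 (-2.03), GLIPR1 (-1.94), MMP1 (-1.88), CNN1 (-1.61), SYTL2 (-1.53), DAPP1 (-1.44), SERPINA3 (-1.43) and SPRR1A (-1.43). Lower responses followed for MAP1B (-1.41), GPAT3 (-1.33), EPGN (-1.29), KRTAP3-1 (-1.28), LYN (-1.14), ITGA2 (-1.13), ALDH1A3 (-1.08) and IL6R (-0.96). Smaller negative differences were those of CTSV (-0.92), TGFB2 (-0.92), SERPINB8 (-0.88), GBP2 (-0.87), LMO7 (-0.82), ANXA1 (-0.80), KRT13 (-0.79) and KRT15 (-0.79). Below 0 as well were ETS2 (-0.77), HBEGF (-0.69), CCN1 (-0.68), MAP3K14 (-0.67), RND3 (-0.65), KLF4 (-0.61), ZYX (-0.60) and EGLN3 (-0.57). The remaining negative differences belonged to PDLIM5 (-0.50), PFKP (-0.47), VCL (-0.45), TRIO (-0.44), NFKB2 (-0.43), LAMB3 (-0.39) and SDC1 (-0.31).

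The most positive differences were found for STEAP4 (1.15), PLEKHS1 (0.99), LRRC31 (0.96), BLNK (0.88), GRPR (0.84), LRRN3 (0.83), MKX (0.79), DLG2 (0.76) and CASP9 (0.75). Higher values followed for PREX1 (0.74), RANBP3L (0.73), CAB39L (0.72), ESR1 (0.67), TENM2 (0.67), NR1D2 (0.66), AKAP6 (0.64), CREB3L4 (0.62) and ANK3 (0.60). Smaller positive differences were those of GRIK4 (0.58), LRIG1 (0.54), PGR (0.51), FOXN3 (0.41), PER3 (0.39), UNG (0.38), ARHGEF17 (0.30) and ASNS (0.27). In genes that HRG lowers, a positive difference is a smaller fall.

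Between RNAi #2 and RNAi #1 cells the log2 response differed, with lower values in RNAi #2 cells, for MMP1 (probe set 7951271) (-1.27), MAP1B (probe set 8106098) (-1.23), SYTL2 (probe set 7950810) (-1.0), TMPRSS11E (probe set 8095364) (-0.96), TMPRSS11E (probe set 8095380) (-0.96), PRG4 (probe set 7908312) (-0.86), ANXA1 (probe set 8155849) (-0.84), ALDH1A3 (probe set 7986446) (-0.83), LMO7 (probe set 7969438) (-0.75), SERPINB8 (probe set 8021653) (-0.74), CNN1 (probe set 8025918) (-0.74), CYTH3 (probe set 8138067) (-0.71), OPN3 (probe set 7925492) (-0.60) and TFF1 (probe set 8070579) (-0.50). TMPRSS11E appears with both of its probe sets.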

How the results depend on the processing

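No called value of a single gene changed sign under the alternatives tried. The balance of higher and lower responses against the controls did turn, from 441 and 389 to fewer higher than lower ones. It turned without vehicle array 2 or 3, without HRG array 1 or 3, and without the 4 arrays that stood apart. It also turned with either control alone and above 1.5-fold. A fold threshold of 2 left 37 higher and 16 lower probe sets in RNAi #2 cells, with 0 early transcription factors and 2 SRF/MRTF genes raised, and no fold threshold gave 1726 and 1608, with 13 ERK feedback inhibitors, 9 early transcription factors and 12 SRF/MRTF genes raised. For the difference from the controls, the replicate block gave 822 higher responses, NTC cells alone 236, parental cells alone 211, and leaving out 1 RNAi #2 array at a time 184 to 524. A difference over 1.5-fold left 35 higher and 129 lower, with 8 SRF/MRTF genes, 4 NF-kappa B targets and 0 G1/S genes. NTC cells alone left 5 NF-kappa B targets and 7 G1/S genes, and parental cells alone 6 G1/S genes; single arrays left out gave 5 to 12 of the latter. For the difference from RNAi #1, the replicate block gave 32 lower and 1 higher, centring each array 26 lower, leaving out 4 arrays that stood apart 6 lower, and single arrays left out 7 to 12 lower and 0 to 1 higher. The causes were not tested. Among the single genes named, 2616 values kept their call, 67 gained and 74 lost it, and of 156 named genes the replicate block changed no call of the response in RNAi #2 cells, ended none of the 65 called differences from the controls or the 10 from RNAi #1, and added 20 and 7. Dim probe sets limit what could be seen of MMP1 and MMP10.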
